A study of Arabidopsis thaliana with 12 samples.

Results

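The genes described here are the 43 genes of the *Arabidopsis thaliana* mitochondrial genome that have a row in the table of RNA levels from *ago4* and Col-0 seedlings. They were chosen by name alone, as every row whose identifier begins with ATMG, out of 16755 genes in the table, of which 99 belong to the chloroplast genome and 16613 to the nuclear genome. The *ago4* plants carried the *ago4-1* allele introgressed into Col-0. The methods of the study do not say from which parent line their mitochondria came, so a shared mitochondrial genome of mutant and control is not assumed. They were seedlings 2 to 3 weeks old, grown in long days, and 3 biological repeats of *ago4* were sequenced after ribosomal RNA was depleted. For these RNA samples, too, the labels list a formaldehyde treatment. The Col-0 libraries that they were set against were grown and prepared in parallel but came out with an earlier publication. They are not among the samples listed for this series and enter the values below only through the pooled mean of the table. AGO4 is an Argonaute protein that binds small interfering RNAs in the nucleus and takes part in RNA-directed DNA methylation, and the comparison of *ago4* with Col-0 asks which transcripts depend on it.

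The value used for every gene is its mean log2 CPM, averaged over the libraries behind the table. CPM is a gene's reads scaled to a fixed library total. This is 1 pooled value per gene. The header of the column names no sample. That the libraries were those of *ago4* and Col-0 is an assumption made here. No level of a single library was analysed here, so the values below carry no spread between replicates and no test, the depth per library is unknown, and no mitochondrial level is compared between *ago4* and Col-0. For the same reason *AGO4* itself, at a pooled mean log2 CPM of 3.69, cannot be followed library by library as a check of the genotype labels. The tissue could be checked: all 3 green shoot markers had a row, with pooled mean log2 CPM of 10.64 for *RBCS1A*, the small subunit of Rubisco, 10.35 for *CAB1* and 8.65 for *LHCB2.1*, both light-harvesting proteins. Of 3 root markers *SCR* had a row, at 2.73, and *EIR1* and *EXPA7* had none. None of 2 flower, 3 seed and 1 pollen markers had a row. Whether markers without a row were filtered out by the authors or had no reads was not tested.

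Plant mitochondria keep a small genome of their own. It encodes some subunits of the respiratory chain and of ATP synthase, proteins that mature cytochrome c, some ribosomal proteins, and the ribosomal and part of the transfer RNAs, while most mitochondrial proteins are encoded in the nucleus and imported. Mitochondrial genes are transcribed by phage-type RNA polymerases encoded in the nucleus, and many of their transcripts are changed after transcription by C-to-U editing, in which chosen cytidines are converted to uridines. In *Arabidopsis* of the Col-0 accession a large piece of the mitochondrial genome has also been copied into chromosome 2, close to its centromere, so that many mitochondrial genes have a nuclear twin of nearly or exactly the same sequence.

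The coding sequence of *atp9* shows both features, and it is given first because its row is the highest of those that could be tied to an annotated gene. It encodes subunit 9 of ATP synthase, the subunit that forms the rotating ring in the membrane. In the TAIR10.1 assembly of RefSeq it lies at 270961 to 271185 on the minus strand of the mitochondrial genome and has 225 bases in 1 exon. Capitals mark the 5 cytidines that the annotation lists as edited, 22.2 per kb.
*atp9*, ATMG01080: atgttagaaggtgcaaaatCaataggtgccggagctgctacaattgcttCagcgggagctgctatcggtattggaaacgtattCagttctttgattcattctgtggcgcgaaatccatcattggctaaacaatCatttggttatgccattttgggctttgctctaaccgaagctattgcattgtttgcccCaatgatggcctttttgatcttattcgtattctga
The same 225 letters, the 5 cytidines included, occur once on chromosome 2, at 3251856 to 3252080 on the minus strand, inside the nuclear gene AT2G07671. By this reference, a read from an unedited transcript of either copy therefore has the same letters. The row of ATMG01080 had a mean log2 CPM of 6.34, and AT2G07671 had no row.

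A different case is *rpl2*, a protein of the large ribosomal subunit. In the best-matching stretch its nuclear twin AT2G07715 can be told from it at 3 positions. The matched sequences were 954 bp long, out of 2170 bp of exon of the twin, and 99.7% identical. The rest of its exons was not compared base by base. Each window below is centred on the differing bases, which are in capitals, and is written in the coding direction. The first lies at 221774 to 221834 of the mitochondrial genome on the minus strand and at 3411956 to 3412016 of chromosome 2 on the plus strand.
*rpl2*, mitochondrial: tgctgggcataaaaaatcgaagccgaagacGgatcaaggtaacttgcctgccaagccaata
AT2G07715, chromosome 2: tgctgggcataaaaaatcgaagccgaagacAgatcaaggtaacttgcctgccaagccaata
The other window lies at 222060 to 222120 of the mitochondrial genome, on the minus strand, and at 3411670 to 3411730 of chromosome 2, on the plus strand, and holds a pair of adjacent differences.
*rpl2*, mitochondrial: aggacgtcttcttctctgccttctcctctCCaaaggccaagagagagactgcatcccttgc
AT2G07715, chromosome 2: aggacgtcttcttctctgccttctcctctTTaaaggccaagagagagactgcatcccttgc
All 3 positions are in the coding sequence of *rpl2*, and none is annotated as an editing site. Both genes had a row, ATMG00560 at a mean log2 CPM of 4.23 and AT2G07715 at 4.77, neither per length.

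The 43 mitochondrial genes spanned 0.01 to 10.45 in mean log2 CPM, not per length, with a median of 2.18 and quartiles of 0.88 and 4.16. The median of all 16755 genes was 2.87, that of the 16613 nuclear genes 2.86 and that of the 99 chloroplast genes 5.23. Mitochondrial genes took larger shares than all genes at both the low and the high end. Below a mean log2 CPM of 1 lay 14 mitochondrial genes, 32.6% of them, against 13.5% of all genes. In the middle band of 2 to 4 lay 10, or 23.3%, against 42.6% of all genes. At 8 or more lay 2, or 4.65%, against 0.925% of all genes. The highest 10% of all genes began at 5.29 and held 7 mitochondrial genes (16.3% of them), and the lowest 10% ended at 0.75 and held 10 (23.3%). These shares describe 1 pooled table, cover only genes with a row and carry no test.

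**Figure D1:**
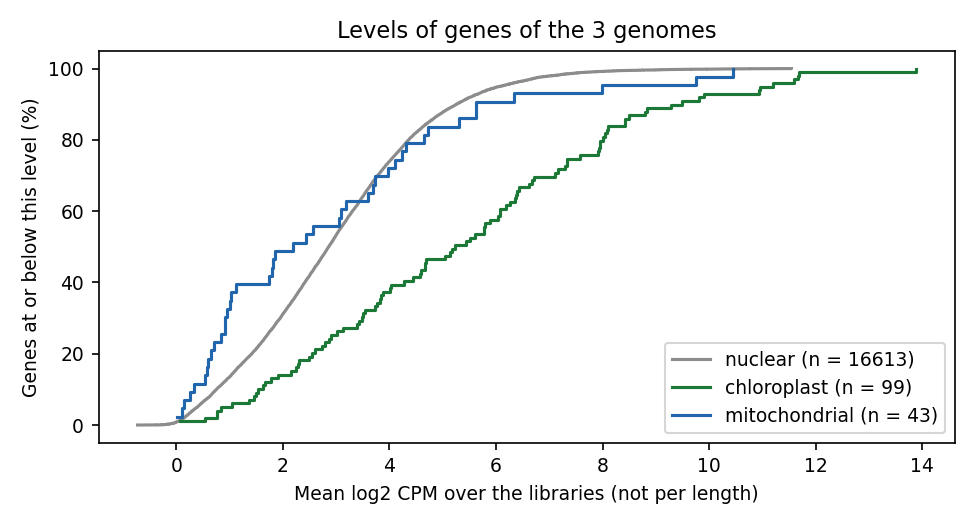
Percentage of genes (vertical axis) at or below each mean log2 CPM (horizontal axis, not per length) for 43 mitochondrial, 99 chloroplast and 16613 nuclear genes, 1 line per genome. The mitochondrial line lies above the nuclear line at low levels and below it at high levels, with medians of 2.18 and 2.86, and the chloroplast line lies to the right with a median of 5.23.

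Most of the mitochondrial signal came from a few rows. ATMG00020 stood at a mean log2 CPM of 10.45, or 1398 CPM, which ranked 24 among all genes. ATMG01390 stood at 9.75, or 861 CPM, which ranked 41. ATMG00030 stood just under 8, at 8.0 after rounding, or 256 CPM, and ranked 157. The reference used here does not annotate these 3 identifiers, so they are given without a gene name. Whether any of them is a ribosomal RNA gene, with reads left after depletion, could not be told from that reference and was not tested. Their ranks and shares are therefore not read as levels of messenger RNA. ATMG00020 alone made up 47.0% of the summed CPM of the 43 genes, the highest pair 75.9%, the highest 3 84.5% and the highest 10 94.2%. The *atp9* row, ATMG01080, came next at 80.9 CPM and ranked 706.

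All 43 genes together summed to 2978 CPM, which was 0.752% of the CPM of genes, while the 99 chloroplast genes summed to 41164 CPM, or 10.4%. Without ATMG00020 and ATMG01390, a calculation chosen after the data were seen, the mitochondrial sum was 719 CPM, or 0.182%, so those 2 rows set the size of the share. Reads that aligned to several places have a row of their own in the table and made up 57.4% of the CPM of all its rows, against 39.3% for genes. A mitochondrial read that also matched chromosome 2 could fall into that row, and how many did was not tested.

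The other rows were lower. Between 4 and 6 in mean log2 CPM, not per length, were ATMG00080 and ATMG01360 (both 5.62), ATMG00090 (5.30), ATMG00510 (4.73), ATMG00410 (4.65), ATMG00660 (4.31), ATMG00560 (4.23) and ATMG01200 (4.10). Between 2 and 4 were ATMG00070, ATMG00690, ATMG01170, ATMG00730, ATMG00160, ATMG00580, ATMG00640, ATMG00060, ATMG01190 and ATMG01120, from 3.97 down to 2.18. Between 1 and 2 were ATMG00110, ATMG00650, ATMG00670, ATMG01130, ATMG01320, ATMG00140 and ATMG01000, from 1.84 down to 1.00. The 14 below 1 were ATMG01370, ATMG01220, ATMG00520, ATMG00680, ATMG01410, ATMG01380, ATMG00513, ATMG00400, ATMG00960, ATMG00830 and ATMG00010, from 0.94 down to 0.25, then ATMG00630 at 0.13, ATMG00130 at 0.11 and ATMG00120 at 0.01, the last equal to 1.01 CPM.

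**Figure D2:**
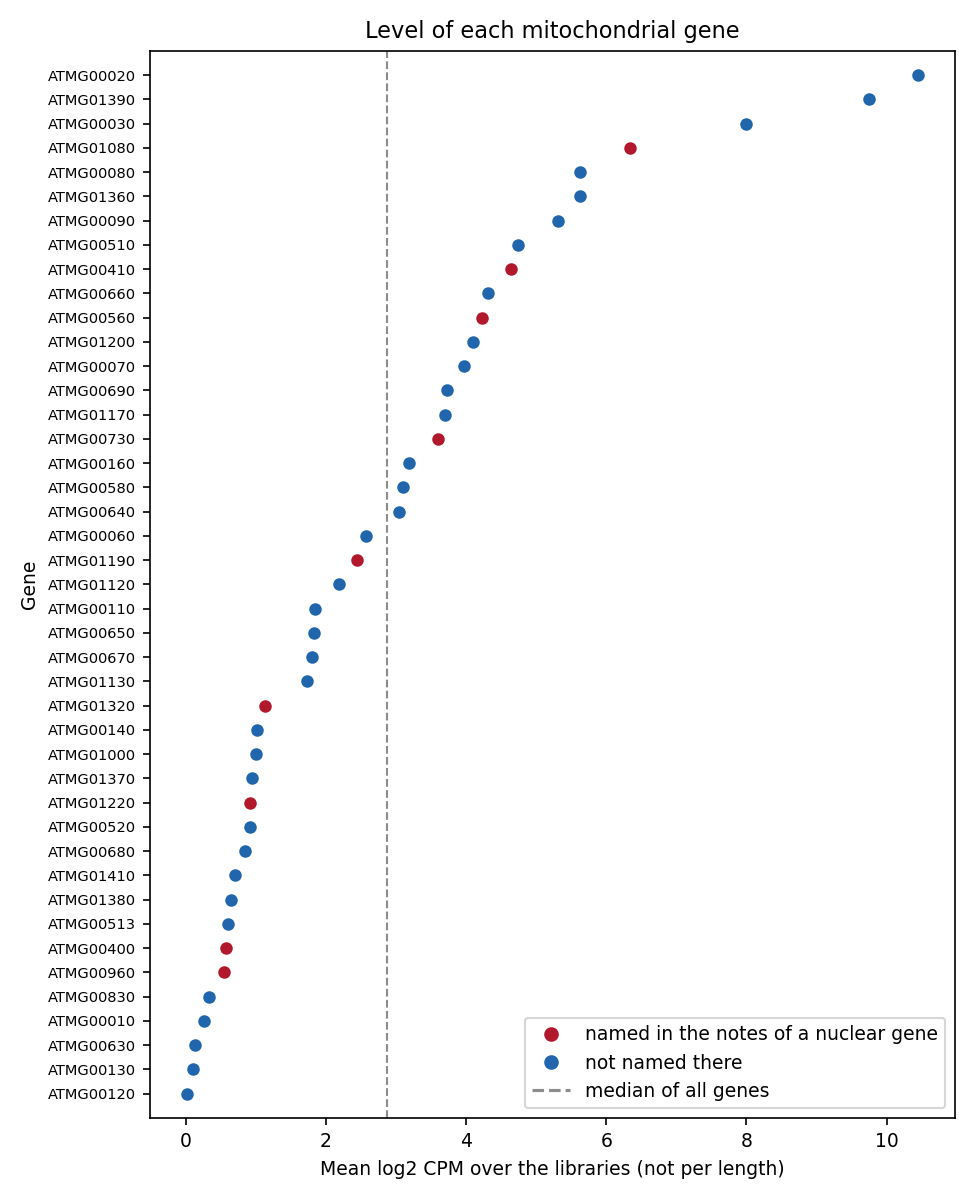
Mean log2 CPM (horizontal axis, pooled over the libraries and not per length) of each of the 43 mitochondrial genes (vertical axis), 1 point per gene. Red points are the 9 genes that the reference annotation names beside a nuclear gene, blue points the other 34, and the dashed line is the median of all genes at 2.87. The 3 highest points, at 8.0 to 10.45, stand apart from the other genes and are all blue.

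The identifiers could be tied to annotated genes in part. RefSeq uses other identifiers for the mitochondrial genome, but its notes on nuclear genes name the mitochondrial gene that each most resembles. Such notes, on 55 nuclear genes, named 53 mitochondrial identifiers, of which 9 had a row in the table and 44 did not. The lowest level of any gene in the table was a mean log2 CPM of -0.73. A missing row can come from a filter of the authors or from reads with several alignments, and neither was tested. It is therefore not read as absence of the transcript. The 9 had a median of 2.44 in mean log2 CPM, not per length, and a range of 0.54 to 6.34. The other 34 of the 43 genes appeared in no note. Of the 55 nuclear genes, 20 had a row and 35 had none.

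By their descriptions and by the place where the nuclear exons matched the mitochondrial genome, the 9 fell into a few roles. ATMG01190, ATMG00410 and ATMG01080 were the ATP synthase subunits *atp1*, *atp6* and *atp9*. ATMG00730 was *cox3*, a subunit of cytochrome c oxidase, the last enzyme of the respiratory chain. ATMG01320 corresponded to a piece of *nad2*, a subunit of complex I, which is assembled from separate transcripts by trans-splicing. ATMG00960 was *ccmFN2*, which takes part in attaching heme to cytochrome c, and ATMG00560 was *rpl2*. ATMG00400 and ATMG01220 are described as unknown proteins, and the stretches matched to them, 576 and 488 bp, overlapped no annotated mitochondrial gene.

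A length could be given to 6 of them, so that their levels can be set beside each other as log2 CPM per kb of coding sequence. Among 16604 nuclear genes the log2 CPM per kb of exon, a length that also counts untranslated parts, had a median of 1.93, quartiles of 0.80 and 3.22, and a highest 10% that began at 4.60. A level per kb of coding sequence comes out higher than one per kb of exon wherever reads also fall on untranslated parts, so the scales are set side by side and no rank is given. The ring subunit *atp9* was the highest of the 6 at 8.49 log2 CPM per kb. Over the 776 bp exon of its nuclear twin, which matches the mitochondrial genome end to end, the same row came to 6.70, a calculation added after the data were seen. The membrane subunit that stands beside the ring, *atp6* (mitochondrial genome, 49423 to 50580, plus strand), was at 4.43 per kb. A subunit of the catalytic head, *atp1* (67098 to 68621, minus strand) was at 1.83 per kb.

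Per kb of coding sequence, these 3 subunits of 1 complex therefore ran from 1.83 to 8.49. Outside ATP synthase, *rpl2* (219910 to 222610, minus strand, 2 coding exons) was at 4.16 log2 CPM per kb of coding sequence and at 2.79 per kb of gene span, its intron included. *cox3* (329976 to 330773, minus strand) was at 3.93 per kb on either length, below *rpl2* by coding length and above it by span. The lowest of the 6 was *ccmFN2* (291580 to 292191, plus strand) at 1.25 per kb. The median of the 6 was 4.04 log2 CPM per kb. With no replicate values, neighbours in this order cannot be told apart by their spread.

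The proteins of these complexes come from both genomes, so the nuclear partners were set beside them. All 27 nuclear genes listed for respiratory complexes, ATP synthase and cytochrome c had a row, with a median of 4.21 log2 CPM per kb of exon and a range of 2.37 to 6.34. The 6 nuclear ATP synthase genes lay between 4.36 (AT5G47030) and 5.92 (AT5G08690), with a median of 5.30. Mitochondrial *atp9* was above all 6 of them, at 8.49 per kb of coding sequence and at 6.70 per kb of the exon of its twin, and *atp6* at 4.43 lay inside their range. The row of *atp1*, at 1.83, was below all 6, but its nuclear twin AT2G07698 was at 5.01 per kb of exon, inside the range. No 50-base stretch of *atp1*, *atp9* or the *atp6* copy used here occurs once in TAIR10.1, and the same holds for *cox3*. Each of these rows may therefore hold only part of the reads, and their places beside the nuclear genes carry that limit. How reads were divided between the copies, or set apart as having several alignments, was not tested. The 5 nuclear genes of complex IV lay between 3.18 (AT1G80230) and 5.29 (AT3G62400), with a median of 4.34, and *cox3* at 3.93 lay inside that range.

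For the other complexes no mitochondrial row of the table could be given a length. The reference gives coding lengths for complex I genes such as *nad9* and *nad4L*, but of that complex it ties only a piece of *nad2* to a row. Whether rows without a gene name belong to such genes could not be told from it. The 6 nuclear genes of complex I had a median of 4.07 log2 CPM per kb of exon, from 3.56 (*EMB1467*) to 4.92 (AT4G02580). The 5 of complex III had a median of 3.41, from 2.37 (AT5G13430) to 4.77 (*MPPBETA*). The 3 of complex II, in plants as in animals the complex that links the citric acid cycle to the chain, had a median of 2.51. Cytochrome c itself, which carries electrons to complex IV, was at 6.34 for *CYTC-1* and 2.68 for *CYTC-2*. *AOX1A*, the alternative oxidase that bypasses complexes III and IV, was at 2.27 per kb.

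**Figure D3:**
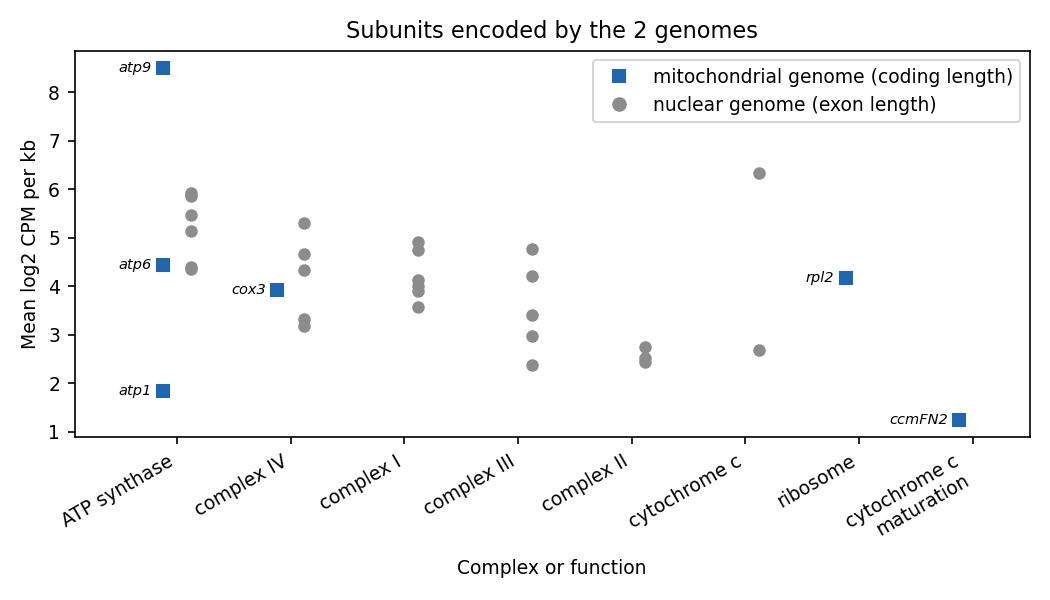
Mean log2 CPM per kb (vertical axis) of 6 mitochondrial genes (blue squares, per kb of coding length) and of 27 nuclear genes (grey points, per kb of exon length), grouped by complex or function (horizontal axis), 1 mark per gene with no error bars. The mitochondrial ATP synthase genes run from 1.83 for *atp1* to 8.49 for *atp9*, and the nuclear ones from 4.36 to 5.92.

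Nuclear genes that handle mitochondrial RNA and DNA lay below every one of the 27 listed subunits. Of 5 such genes, 4 had a row, with log2 CPM per kb of exon from 0.02 for *MSH1*, which guards the organelle genomes against recombination, to 0.91 for *MGP3* (AT1G68990), a phage-type RNA polymerase, and a median of 0.34. *nMAT1*, a maturase that splices mitochondrial introns, had no row. *AGO4* was at 1.99 on the same scale.

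How far a read can be assigned to the mitochondrial genome depends on the copies of its sequence. The mitochondrial sequence of TAIR10.1 has 367808 bases. It was read as overlapping 50-base words, of which 28.9% occurred once in the whole assembly on either strand. A copy that the assembly lacks would not be counted, and whether it holds every nuclear copy was not tested. Of the words, 70.4% occurred also on chromosome 2, 1.3% on one of the other nuclear chromosomes, 0.319% in the chloroplast genome and 8.66% more than once in the mitochondrial genome itself. On chromosome 2 the shared words formed a block of 270728 bp, from 3239038 to 3509765, in which 95.9% of the words were also mitochondrial.

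That block holds 185 annotated nuclear genes, of which 52 had a row. Their mean log2 CPM, not per length, ran from -0.01 to 6.63 with a median of 1.42, and they summed to 471 CPM. The highest were AT2G07717 at 6.63, AT2G07698, the twin of *atp1*, at 6.30, and AT2G07709 at 6.04.

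Gene by gene the coding sequences fell into a few classes. Of 33 annotated mitochondrial protein-coding genes, 6 had at least 90% of their words once in the TAIR10.1 assembly: *nad9*, *nad4L*, *cox1*, *ccmB* and *atp4*, all at 100%, and *rps3* at 92.6%. Another 16 had no such word, among them *cob*, *cox3*, *atp9*, *atp1*, *nad2*, *nad4* and the longer copy of *atp6*. The 11 in between ran from 3.53% for *mttB* to 74.2% for *cox2*. Of the 6 genes with a length above, *atp1*, *atp6*, *atp9* and *cox3* had no word found once, *ccmFN2* had 8.35% and *rpl2* 10.6%.

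These 6 could be placed only because they had a row and a note on a nuclear gene of like sequence. Their low shares of words found once follow from that choice and do not describe mitochondrial genes in general. The row of *atp9* stood at 80.9 CPM in a table that keeps reads with several alignments apart. The sources name TAIR10 as the build, whereas the words were counted in TAIR10.1, and whether both carry the same mitochondrial sequence was not tested.

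**Figure D4:**
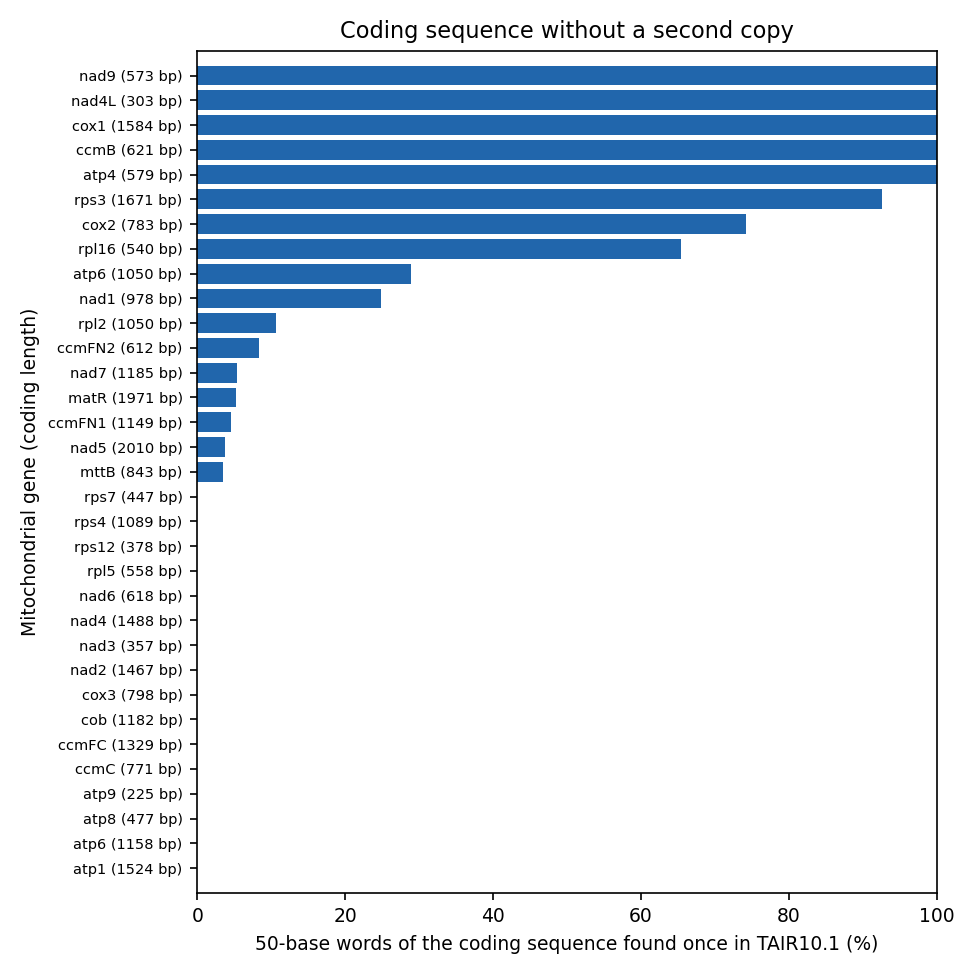
Percentage of 50-base words of each coding sequence that occur once in the TAIR10.1 genome (horizontal axis) for the 33 annotated mitochondrial protein-coding genes (vertical axis, coding length in brackets), 1 bar per gene, genes without a bar being at 0. Bars reach at least 90% for 6 genes and are at 0 for 16.

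For 5 of the 9 genes the nuclear twin had a row as well, and the 2 values of a pair were not alike in every case. All are pooled mean log2 CPM, not per length. ATMG00400 was at 0.57 and AT2G07835 at 0.53, with 576 bp matched at 100% identity. ATMG01220 was at 0.92 and AT2G07798 at 1.17.

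The cytochrome oxidase gene ATMG00730 was at 3.6 and its twin AT2G07687 at 2.22, although 998 bp of exon matched at 100% and no word of the twin occurred once. The widest gap was that of *atp1*. ATMG01190 was at 2.44 and AT2G07698 at 6.30, with 1606 bp of the twin's 2444 bp of exon matched at 100%. Of the words of AT2G07698, 2.13% occurred once. Per kb the pair stood at 1.83 and 5.01, so the nuclear identifier carried the higher level for *atp1* and the mitochondrial one for *cox3*, at 3.93 against 2.22. On the exon length of the twin *cox3* was at 3.61. For *rpl2* the mitochondrial row was at 4.16 per kb of coding sequence and the nuclear row at 3.65 per kb of exon, and per kb of gene span the mitochondrial row was at 2.79, so the order of this pair turns with the length used. Over the matched stretches of *atp1* and *cox3* the reference letters are the same in both genomes. By that reference, unedited RNA from the nuclear and from the mitochondrial copy cannot be told apart there. The matched 407 bp of *ccmFN2* and its twin differed at 1 position. For the other 4 twins, AT2G07741 (*atp6*), AT2G07671 (*atp9*), AT2G07768 (*ccmFN2*) and AT2G07689 (*nad2*), no row was present.

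Editing adds a feature by which mature mitochondrial RNA differs from both DNA copies. The annotation lists 575 edited positions in the 33 coding sequences, from 0 in *cox1* to 52 in *nad4*, and *ccmB*, with 51, had the most per kb at 82.1. Among the 6 genes with a level per kb, editing was densest in *ccmFN2*, with 14 sites or 22.9 per kb, and *atp9*, with 5 sites or 22.2 per kb, the lowest and the highest in level. In *cox3* there were 9 sites (11.3 per kb), in *atp1* 6 (3.94 per kb), in *rpl2* 4 (3.81 per kb) and in *atp6* 1 (0.864 per kb). An edited read would differ from the reference at such a site. The table gives no sequence of the reads, so neither the share of edited transcripts nor an effect of editing on the counts was tested.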

How the data were processed

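The members and the gene lists were chosen with earlier results of these data known. The table is taken to pool RNA-seq of 3 *ago4* repeats with that of parallel Col-0 libraries, which are not among the samples of this series. The header of its level column names no sample. The Hi-C lists of the same study cover no mitochondrial region and were not used. Per the labels and the methods of the study, the authors mapped reads to TAIR10 with TopHat2 and Bowtie and deposited 1 table from edgeR. Versions are not given in the sources used here. Its log2 CPM column, a mean over all libraries deposited by the authors, was used as it stands. Its other columns hold a log2 fold change and a p-value per gene, the authors' own comparison, and were used for nothing. A CPM is 2 to the power of the log2 CPM, and shares leave out rows that name no gene (reads with several alignments 57.4%, no feature 2.22%, ambiguous 1.02% of the CPM of all rows).

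The design had set levels per kb of exon for all members. The reference places only 6, so levels without length scaling are the main values. Comparisons of trans-spliced pieces and without ribosomal or transfer RNA genes were not possible for the same reason. Lengths, positions and editing sites came from RefSeq TAIR10.1, in which 16604 of 16613 nuclear genes had a length. Nuclear exons were matched to the mitochondrial sequence with blastn 2.17.0 at an E-value of at most 1e-10. Blocks of shared words less than 10000 bp apart were merged. Word counting was tested on simulated sequences. Python 3.11.15, numpy 2.4.6, Biopython 1.88 and matplotlib 3.10.9 were used. Every member is named, nuclear genes only as the highest and lowest of each list, and twins and the 3 highest genes of the chromosome 2 block were named after their values were seen.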

Additional observations from a re-analysis of the deposited data

How the results depend on the processing

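No library was left out in turn and no spread was estimated, since each gene has 1 pooled value. No paired analysis was possible because the result comes from no test and the column used carries no replicate number. The median of the mitochondrial genes, 2.18 in mean log2 CPM, was the same among genes at 0 or more, 2.44 over the 9 genes named in reference notes, and over the 6 genes with a length 4.04 per kb of coding sequence and 3.36 per kb of gene span. The 7 genes in the highest 10% became 4 in the highest 5%. The highest 10% of nuclear genes began at 4.60 per kb of exon. Of the 6 genes with a length, 1 lay above that value per kb of coding sequence and per kb of gene span. Neither is an exon length, so this count gives no rank. Of the 3 whose nuclear twin matches end to end, 1 lay above it per kb of the exon of that twin (added after the data were seen). The share of 0.752% became 0.296% of the CPM of all rows and, in a calculation added after the data were seen, 0.182% without the 2 highest genes. The 6 coding sequences found once stayed at 6 with words of 30 or 100 bases and with nuclear copies alone counted, and were 8 at a limit of 50%. Of the identifiers in notes, 9 had a row also when pseudogene notes were left out. The medians without ribosomal and transfer RNA genes and the share without ribosomal RNA genes were not run, since the reference does not annotate these identifiers.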
